A study of Homo sapiens with 8 samples.

Results

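BTG1, BTG2, BTG3, TOB1 and TOB2 form the BTG/TOB family of antiproliferative genes. Their mRNAs were followed in KM-H2, a Hodgkin lymphoma line and thus of B cell origin. All array probes whose transcript identifier belonged to one of these 5 genes were taken, which gave 6 of the 41000 probes on the array, 2 for TOB2 and 1 for each other gene. They stand for 5 of 16557 genes named on the array. The family was selected on ratios of Ago2-bound to total RNA measured on these same arrays, among which that of BTG2 ranked high, so all ratios below describe the data and none was tested.

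KM-H2 cells carried either the empty pMSCV-PIG vector (EV) or a retrovirally expressed sponge named miR-155-sp, whose transcript holds binding sites for miR-155. Cells with this sponge are called sponge cells here. For either population, RNA of the whole lysate (total, T) and RNA precipitated by an Argonaute 2 antibody (Ago2-IP) went on arrays, which makes 4 RNA samples with 1 per group. Each was labelled both with Cy3 and with Cy5. These 2 labellings come from 1 RNA, so no difference has a replicate check. Each group is 1 transduced population, and the negative control precipitation with an unspecific antibody that the study describes is not analysed here.

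BTG and TOB proteins share a conserved N-terminal domain that binds the CAF1-type deadenylases of the CCR4-NOT complex, CNOT7 and CNOT8. Through this contact they bring deadenylase to mRNAs, whose poly(A) tails are then shortened, and high levels of these proteins slow the entry of cells into S phase. In B cells BTG1 and BTG2 are known as restraints on proliferation that are recurrently mutated in lymphoma. Ago2 is the protein that miRNAs guide to matching sites in mRNAs, where it in turn recruits CCR4-NOT, and the study takes mRNAs enriched in the precipitate over total RNA as miRNA-bound.

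The sponge is directed against miR-155-5p, the guide that is abundant in Hodgkin lymphoma cells. It is shown because the comparison of both cell populations rests on it. The RefSeq sequence lies at chr21:25573983-25574006 on the plus strand of GRCh38.p14. Capitals mark the seed, bases 2 to 8, which pairs with target mRNAs.
hsa-miR-155-5p: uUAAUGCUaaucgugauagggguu

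All 6 probes of the family were detected, that is, well above background by the scanner software's flag, in all 8 channels, as were 13432 of the 17912 probes retained on the array (43.7% of all probes). Retained probes were detected in at least 4 channels and within 2-fold between the Cy3 and Cy5 labellings of every sample. In the Cy3 channels 58.9% to 61.9% of gene spots were detected, in the Cy5 channels 38.8% to 43.4%. In total RNA 7 of 8 Hodgkin lymphoma markers, TNFRSF8 (CD30) and CCL17 among them, were detected in all 4 channels, and CCL22 in none. Of the B cell markers CD74 and CD79A were, while CD79B and PAX5 were in none. Of the T cell markers 1 of 5 (CD2) and of the monocyte markers 1 of 3 (CSF1R) were detected in all 4. BTG4, the remaining family member, known for mRNA clearance in eggs, was detected in 0 of 8 channels. Its log2 normalized signal was at most 3.43, and no ratio is given.

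BTG2, BTG3, TOB1 and TOB2 were higher in the Ago2-IP than in the total RNA of both cell populations, by factors from 2.26 (TOB1) to 35.6 (BTG2) in EV cells, while BTG1 stood near a ratio of 1. A probe counts as enriched at an IP/T of 2 or more. In EV cells 5 of the 6 probes were enriched, as were 14.8% of all retained probes. Sponge cells likewise had 5 of 6, beside 15.6% of all retained probes. An IP/T of at least 4 was found for 3 of 6 probes in each cell population (5.91% of all probes in EV and 6.31% in sponge cells), and an IP/T of at least 8 for 1 probe, that of BTG2 (2.15% and 2.36%). No member probe had an IP/T of 0.5 or less, found for 12.9% and 14.1% of all probes. The median log2 IP/T of the 6 probes was 1.96 in EV and 2.10 in sponge cells, beside -0.24 and -0.26 over all retained probes. With 2 probes TOB2 counts double in these numbers.

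**Figure D1:**
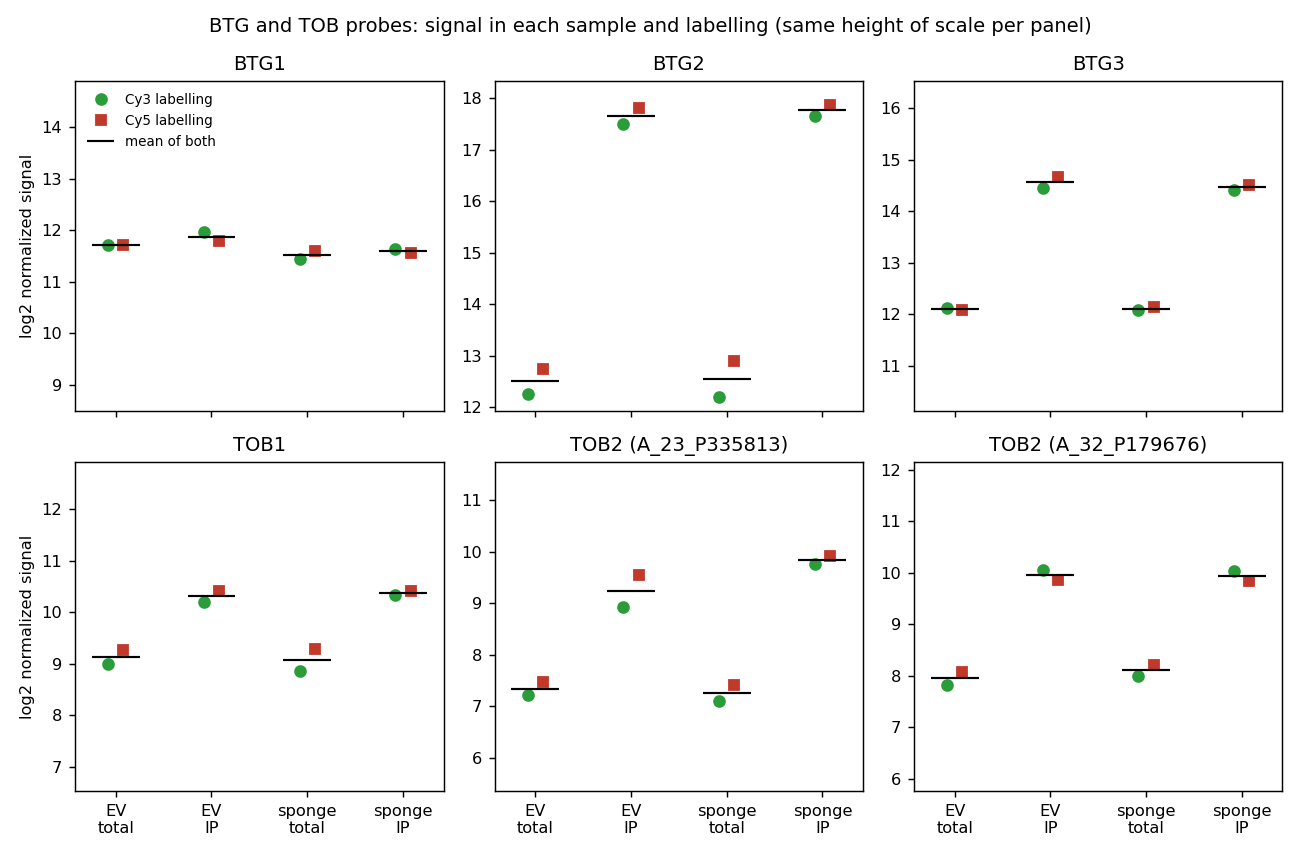
Log2 normalized signal (y axis) of the 6 BTG and TOB probes in the 4 RNA samples (x axis), with circles for the Cy3 labelling, squares for the Cy5 labelling and a line at their mean. Panels start at different levels but span the same range, and the step from total to IP is largest for BTG2, by more than 5 log2 units, and nearly flat for BTG1.

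BTG2, the family member that p53 and growth signals induce within a short time and that stalls cells before S phase, had the largest ratio. Its log2 normalized signal in EV total RNA was 12.26 in Cy3 and 12.75 in Cy5, and in EV Ago2-IP RNA 17.51 and 17.81. In sponge cells it was 12.20 and 12.89 in total RNA, and 17.66 and 17.87 in Ago2-IP RNA. Every IP labelling lay far above every total labelling, while the cell populations overlapped within each fraction. Before normalization between channels the processed intensity was 5195 (Cy3) and 7250 (Cy5) in EV total RNA against 204910 and 261629 in EV Ago2-IP RNA, and no gene spot of the array was saturated in any channel. The resulting IP/T was 35.6 in EV cells, 46.7 with the IP RNA in Cy5 and 27.0 with it in Cy3. With the sponge it was 37.3, with 51.1 and 27.3. The orientations thus differed more from each other than the cell populations did.

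This placed BTG2 at rank 9 of the 17912 retained probes in EV cells and rank 16 in sponge cells. Among the 13432 probes detected in all channels it was rank 3 in both. An IP/T of at least 16, which BTG2 alone in the family reached, was found for 0.726% of all retained probes in EV cells and 0.854% in sponge cells.

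BTG3, also called ANA, a p53-induced member known to bind E2F1, came next in EV cells. Its log2 normalized signal was 12.12 (Cy3) and 12.07 (Cy5) in EV total RNA and 14.46 and 14.66 in EV Ago2-IP RNA. In sponge cells the values were 12.07 and 12.15 in total RNA, and 14.42 and 14.51 in Ago2-IP RNA. The labellings of each sample lay close together and the fractions far apart. The IP/T was 5.52 in EV cells (5.84 for Cy5-labelled IP, 5.22 for Cy3-labelled IP) and 5.12 in sponge cells (5.43 and 4.83). Values in parentheses after a ratio keep this order of orientations below. The spread between orientations was among the smallest of the family, with an SD of 0.12 in EV cells on the log2 scale.

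BTG1, the closest relative of BTG2 and a gene of resting lymphocytes, had no step of this kind. Its log2 normalized signal was 11.71 in both labellings of EV total RNA, and 11.96 (Cy3) and 11.80 (Cy5) in EV Ago2-IP RNA. The sponge cells gave 11.44 and 11.61 in total RNA and 11.64 and 11.55 in Ago2-IP RNA. IP and total did not overlap in EV cells but did in sponge cells. The IP/T was 1.12 in EV cells (1.06 and 1.19) and 1.05 in sponge cells (1.08 and 1.02). BTG1 still lay above 66.9% of all retained probes in EV cells, as the median probe had a ratio below 1.

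TOB1, named as a transducer of the receptor ERBB2, carries a long C-terminal part with motifs that bind poly(A)-binding protein. Its log2 normalized signal was 8.99 (Cy3) and 9.27 (Cy5) in EV total RNA and 10.21 and 10.41 in EV Ago2-IP RNA. Sponge cells had 8.85 and 9.28 in total RNA and 10.34 and 10.41 in Ago2-IP RNA. All IP labellings were above all total labellings, by about a log2 unit. The IP/T of 2.26 in EV cells was 2.67 for Cy5-labelled IP and 1.91 for Cy3-labelled IP, so it passed the ratio of 2 in only 1 orientation. In cells with the sponge it was 2.47 (2.94 and 2.08).

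TOB2 is the close homolog of TOB1 with the same layout. On probe A_23_P335813 the log2 normalized signal was 7.21 (Cy3) and 7.46 (Cy5) in EV total RNA and 8.93 and 9.55 in EV Ago2-IP RNA. For sponge cells it was 7.10 and 7.41 in total RNA and 9.76 and 9.91 in Ago2-IP RNA. The IP labellings of sponge cells were both above those of EV cells, and the EV pair itself was 0.62 apart. The IP/T was 3.73 in EV cells (5.05 for Cy5-labelled IP, 2.76 for Cy3-labelled IP) and 5.99 in sponge cells (7.03 and 5.11).

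On probe A_32_P179676 TOB2 had a log2 normalized signal of 7.81 (Cy3) and 8.08 (Cy5) in EV total RNA and 10.05 and 9.87 in EV Ago2-IP RNA. The corresponding sponge values were 7.99 and 8.22 in total RNA and 10.04 and 9.84 in Ago2-IP RNA. Here the IP labellings of both cell populations overlapped. The IP/T was 4.04 in EV cells (4.15 and 3.92) and 3.57 in sponge cells (3.60 and 3.54). In EV cells the probes of TOB2 thus gave like ratios, a log2 difference of -0.11 (A_23_P335813 minus A_32_P179676), and in sponge cells they differed by 0.75.

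The order of IP/T in EV cells was BTG2, BTG3, TOB2 (A_32_P179676, then A_23_P335813), TOB1 and BTG1. BTG2 exceeded BTG3 by 6.44-fold, and BTG3 exceeded the first TOB2 probe by 1.37-fold. The TOB2 probes were only 1.08-fold apart and overlapped between dye orientations. TOB1 lay 1.65-fold below A_23_P335813 and 2.01-fold above BTG1. In sponge cells A_23_P335813 moved to the second place, 1.17-fold above BTG3 and overlapping with it, and the other neighbours did not overlap. Signals of different probes depend on the probe, so only ratios within a probe were ordered.

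**Figure D2:**
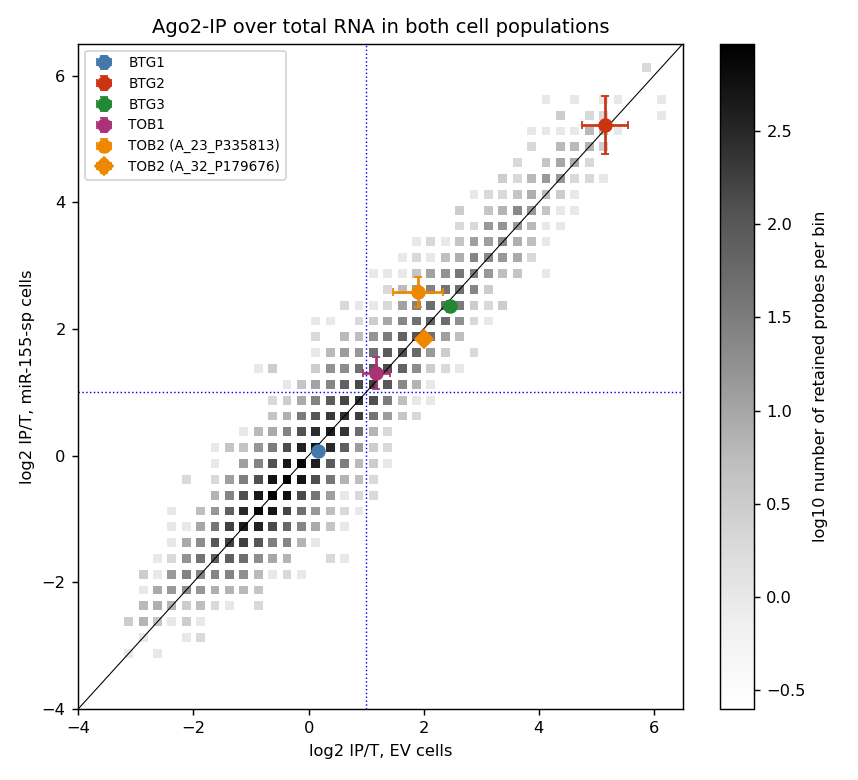
Log2 IP/T in EV cells (x axis) against sponge cells (y axis), with the number of retained probes per bin in grey (log10) and the 6 family probes in colour. Bars reach from one dye orientation to the other, dotted lines mark an IP/T of 2, and BTG2 lies at the upper end of the cloud, at 5.15 and 5.22, while BTG1 lies near 0 on both axes.

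The dimmer members had lower ratios under another background correction, and the cause was not tested. In the Cy3 channels the spots of BTG1, BTG2 and BTG3 were between 88.0 and 2919 times as bright as their local background, and those of TOB1 and both TOB2 probes between 4.91 and 46.0 times. In Cy5 the same ranges were 5.73 to 455.5 and 1.37 to 2.88. With normexp, a background correction that leaves an offset on all signals, followed by loess and Aquantile normalization, only 3 of 6 probes were enriched in EV cells. TOB1 then had a log2 IP/T of 0.77 and the TOB2 probes 0.90 (A_23_P335813) and 1.03 (A_32_P179676), beside 1.18, 1.90 and 2.01 in the values above. BTG2 stayed at 5.08 and BTG3 at 2.44. Of all probes 5.99% were enriched in EV cells under the same correction.

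**Figure D3:**
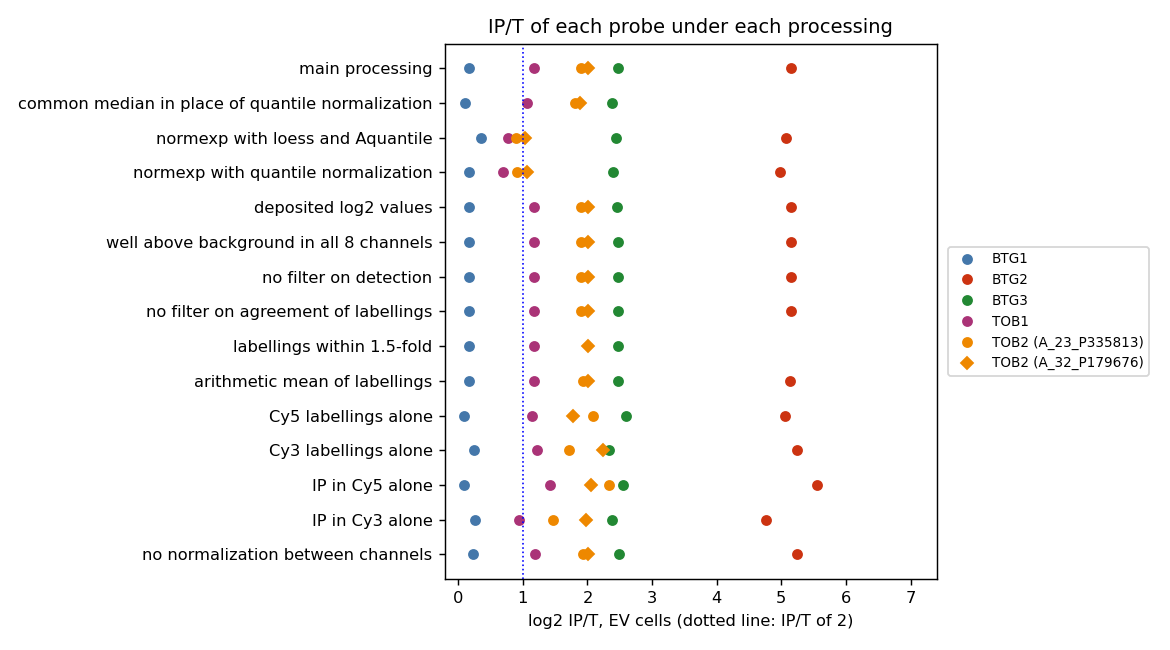
Log2 IP/T in EV cells (x axis) of each family probe under each way of processing (y axis), with a dotted line at an IP/T of 2. BTG2 stays between 4.76 and 5.55 wherever it was retained, whereas TOB1 and the TOB2 probes shift to the left under normexp. A missing point means that the probe was not retained under that setting.

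The second comparison addresses whether the RNA level or the Ago2 binding of these genes differed in cells with the miR-155 sponge. How much of the miR-155 the sponge captured is not measured on these arrays. The study found no clear drop with the sponge in the Ago2 enrichment rank of genes with a miR-155 site motif in KM-H2. For miR-155 targets that it identified in a Burkitt lymphoma line, the study reports a mild decrease of IP/T in sponge KM-H2 cells. It proposes that the sponge left part of the miR-155 free, so small changes below do not show that a gene is insensitive to miR-155. In total RNA the log2 changes, miR-155-sp minus EV, were small, from -0.18 (BTG1) to 0.16 (TOB2, A_32_P179676). No member changed 2-fold, while 0.0893% of all retained probes rose and 0.274% fell by that much. In RNA from bulk cells a change in the share of expressing cells and in the RNA per cell cannot be told apart. The labellings of BTG1 were both lower in sponge cells (-0.27 and -0.10). Both were also lower for TOB2 on A_23_P335813 (-0.12 and -0.053) and both higher on A_32_P179676 (0.18 and 0.13). These TOB2 directions turned under other processing, to 0.076 and 0.059 on A_23_P335813 with normexp (loess, then quantile) and to -0.18 on A_32_P179676 with no normalization between channels, where the median change of all probes was -0.28. For BTG2 (0.038), BTG3 (0.014) and TOB1 (-0.067) the labellings went in opposite directions. A fall in both labellings was found for 32.9% and a rise in both for 32.4% of all retained probes, so 2 falls and 1 rise among 6 probes are close to the array as a whole.

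In the Ago2-IP RNA BTG1 was lower in sponge cells by a log2 change of -0.28 (-0.24 and -0.32) and BTG3 by -0.095 (-0.15 and -0.037). BTG2 was higher by 0.11 (0.064 and 0.15). TOB1 changed by 0.064 with labellings on both sides of 0. Thus 2 of 6 probes were higher in both labellings (30.5% of all retained probes) and 3 of 6 lower (32.6%), counting both TOB2 probes. The TOB2 probe A_23_P335813 was higher by 0.60 (0.36 and 0.83), whereas A_32_P179676 changed by -0.023. None of the 6 reached 2-fold (0.234% of all retained probes did), and the median absolute change over all retained probes was 0.16.

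The log2 change of IP/T was 0.070 for BTG2 (0.13 for Cy5-labelled IP, 0.011 for Cy3-labelled IP), -0.11 for BTG3 (-0.11 and -0.11) and 0.13 for TOB1 (0.14 and 0.12). It was -0.099 for BTG1, with the orientations on both sides of 0. By dye in place of orientation the changes of BTG2, BTG3 and TOB1 lay farther apart. They were 0.22 in Cy3 and -0.076 in Cy5 for BTG2, 0.0097 and -0.23 for BTG3, and 0.27 and -0.013 for TOB1. Those of BTG1 lay closer together and both below 0, at -0.056 and -0.14. The 4 means lie below the median absolute change of 0.17 over all retained probes. None of the 6 probes had an IP/T 2-fold lower in sponge cells (0.698% of all) or 2-fold higher (0.748%). A higher IP/T in both orientations was found for 3 of 6 probes (30.6% of all) and a lower one for 2 of 6 (30.3%).

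The exception in size was TOB2. On A_23_P335813 the log2 IP/T was 0.68 higher in sponge cells (0.48 and 0.89), the direction opposite to a loss of Ago2, and 482 of the 17912 retained probes rose at least as much. On A_32_P179676 it was 0.18 lower, a log2 change of -0.18 (-0.21 and -0.15). The probes differed in this change by 0.86 on the log2 scale, 0.68 for Cy5-labelled IP and 1.04 for Cy3-labelled IP. Most of the rise on A_23_P335813 lay in the IP fraction, 0.60 against -0.084 in total RNA. Across the alternative ways of processing it ranged from 0.20 with normexp and loess to 0.95 with the Cy3 labellings alone. It stayed above 0 in the 13 alternatives that retained this probe. Those that change only a filter leave the value of a retained probe as it is, so they could not alter the sign. Whether the probes report different transcript forms of TOB2 was not tested.

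**Figure D4:**
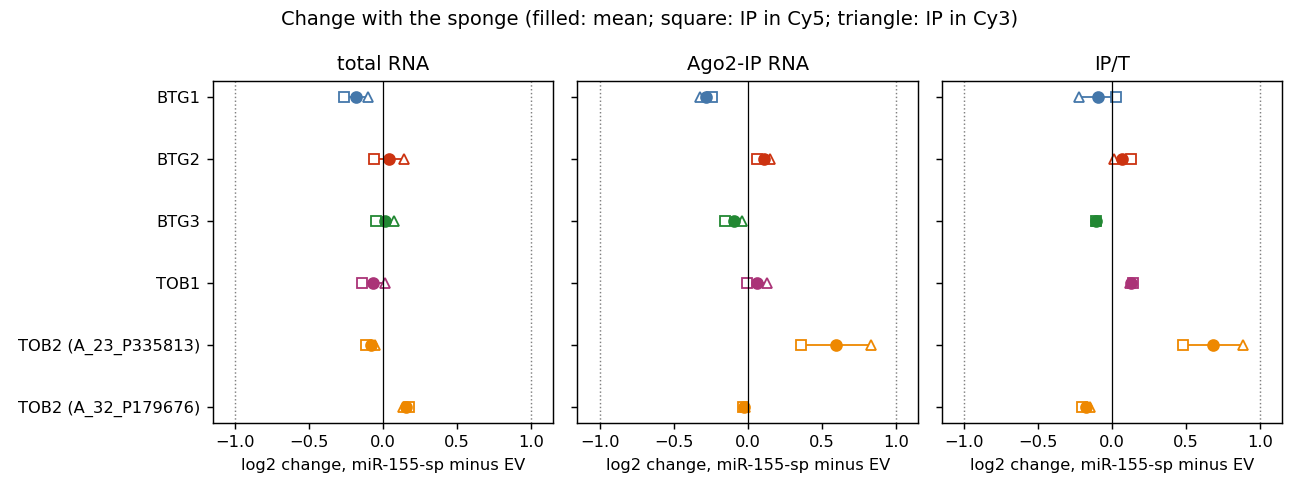
Log2 change, miR-155-sp minus EV (x axis), of each family probe (y axis) in total RNA, Ago2-IP RNA and IP/T. Filled circles show means, squares the arrays with Cy5-labelled IP and Cy3-labelled total, triangles the reverse and dotted lines a 2-fold change. All means lie within 2-fold, and A_23_P335813 of TOB2 is the farthest from 0 in the IP and IP/T panels.

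For each member the 3 genes with the most similar profile over the 4 samples were taken, by Euclidean distance between centred log2 values, among 10073 probes detected in all channels and matched to 1 gene (10072 for TOB2). Nearest to BTG2 were the zinc finger genes ZNF254 (distance 0.072), ZNF430 (0.18) and ZNF680 (0.20). Their IP/T was 35.9, 33.2 and 30.5 in EV cells and 39.9, 32.0 and 32.8 in sponge cells. The ratio is computed from the same values as the distance, so like ratios among nearest genes follow from how they were picked. Zinc finger genes of this kind share sequence with close relatives, so the probe assignment is uncertain.

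Nearest to BTG1 were TIPRL (0.027), HLA-B (0.030) and TANK (0.031), a regulator of NF-kappaB signalling. Their IP/T, close to that of BTG1 by the way they were picked, lay between 1.04 and 1.14 in either cell population. HLA-B also shares sequence with other class I genes. Nearest to BTG3 were EEF1AKMT4 (0.046), GCSH (0.053), a part of the glycine cleavage system, and NMU (0.063). Nearest to TOB1 were the centrosome gene CEP192 (0.022), the small heat shock gene HSPB1 (0.031) and SINHCAF (0.049). Nearest to TOB2, by its brighter probe A_32_P179676, were TNFAIP1 (0.013), the ribosomal protein gene RPLP0 (0.030) and PLEKHB2 (0.051). Except for BTG2 the distances were at most 0.063.

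For the CCR4-NOT genes, which include the deadenylases that BTG and TOB proteins bind, 5 of 18 retained probes were enriched in EV cells and 4 of 18 in sponge cells (14.8% and 15.6% of all retained probes). Their median log2 IP/T was -0.21 and -0.24. The probes of CNOT7, one of the deadenylases that the family binds, had a log2 IP/T between -0.52 and -0.19 in EV cells and between -0.56 and 0.20 in sponge cells, and that of CNOT8, the other, -0.36 and -1.13. The highest among probes detected in all channels was CNOT6L, a catalytic subunit (4.49 in EV and 5.76 in sponge cells, A_23_P110304), followed by CNOT9 (2.62 and 1.81). The lowest were CNOT10 (0.586 and 0.585) and CNOT3 (0.459 and 0.511). A second CNOT6L probe, A_24_P291680, was the only list probe whose IP/T changed 2-fold, a log2 change of 1.62 together with -1.40 in total RNA, and it was detected in 6 channels.

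The products of the poly(A)-binding and PAN2-PAN3 genes hold or trim the poly(A) tail. Of their 12 retained probes 1 was enriched in EV and 2 in sponge cells (14.8% and 15.6% of all retained probes). The median log2 IP/T of the 12 was 0.46 and 0.32. PAN3, the adaptor of the PAN2 nuclease, was highest in EV cells (3.12 and 2.78), followed by PAIP1 (1.73 and 2.16 on A_23_P207811). On A_24_P77681 PAIP1 had 1.00 and 1.22. The lowest were PABPC4 (0.871 and 0.720) and PAIP2 (0.694 and 0.630). Of the RNA-binding and nuclear partners, such as SMAD and CPEB proteins that TOB1 and TOB2 are known to bind, 10 probes were retained. Of these 2 were enriched in EV and 1 in sponge cells (14.8% and 15.6% of all retained probes). Their median log2 IP/T was 0.45 and 0.24. These counts differed between ways of processing. In EV cells they were 9 of 17 without the filter on labellings, 3 of 17 with normexp and quantile normalization and 0 of 7 with channels scaled to a common median, and in sponge cells 8 of 17, 3 of 17 and 0 of 7. The highest of the 10, CPEB3, had a log2 IP/T of 3.42 in EV and 3.01 in sponge cells but was detected in only 4 channels. Among those detected in all channels SMAD1 (A_24_P71938) was highest, with an IP/T of 2.05 and 1.84, followed by E2F1 (1.65 and 1.47). HOXB9 was the lowest (0.304 and 0.323).

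The next list held other genes that restrain the cell cycle. Of 38 retained probes of antiproliferative and quiescence genes 18 (47.4%) were enriched in EV cells and 16 (42.1%) in sponge cells (14.8% and 15.6% of all retained probes), with a median log2 IP/T of 0.91 and 0.62. Among probes detected in all channels CDKN1B, the CDK inhibitor p27, held the first places, with 18.6 and 16.4 on A_24_P81841 and 6.67 and 8.73 on A_23_P204696. MXD4, an antagonist of MYC, was among the lowest (0.522 and 0.677), as was ING1 (0.488 and 0.506). In EV cells the count was 9 of 43 under normexp with loess and 9 of 44 under normexp with quantile normalization, where 5.99% and 6.64% of all probes were enriched.

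Of the p53 target genes 8 of 22 retained probes (36.4%) were enriched in each cell population. Of all retained probes 14.8% were enriched in EV and 15.6% in sponge cells. The highest were the death receptors FAS (13.9 and 15.0) and TNFRSF10B (4.12 and 4.42 on A_24_P218265). On A_23_P169030 TNFRSF10B had 2.42 and 2.56. The lowest probes were of the BCL2 family genes BBC3 (0.275 and 0.326 on A_23_P90189) and BAX (0.239 and 0.281). The probes of BBC3 disagreed, with 1.43 and 1.59 on A_23_P382775 and 0.891 and 1.07 on A_24_P305312. This list shares genes with the antiproliferative list. BTG2 is known as a p53 target too, and its IP/T was above that of every probe of the list.

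The list whose median lay nearest to that of the family was that of short-lived immediate early and AU-rich mRNAs, a class to which BTG2 is also counted. Of its 27 retained probes 17 (63.0%) were enriched in EV and 18 (66.7%) in sponge cells (14.8% and 15.6% of all retained probes). Their median log2 IP/T was 1.88 and 1.94. ZFP36, which itself recruits CCR4-NOT to AU-rich mRNAs, had an IP/T of 12.9 in EV and 11.9 in sponge cells. The phosphatase DUSP2 had 12.6 and 13.7 on A_24_P37409. The lowest probes were those of JUN (0.948 and 1.04) and A_24_P379223 of IER5 (0.159 and 0.206). On A_23_P86330, also detected in all channels, IER5 had 1.64 and 1.36, so its probes disagreed. KLF6 is held both by this and by the antiproliferative list. The highest ratio of any probe in the lists, 18.6 for CDKN1B, remained below that of BTG2. No list was tested, and nothing is called particular to any of them.

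**Figure D5:**
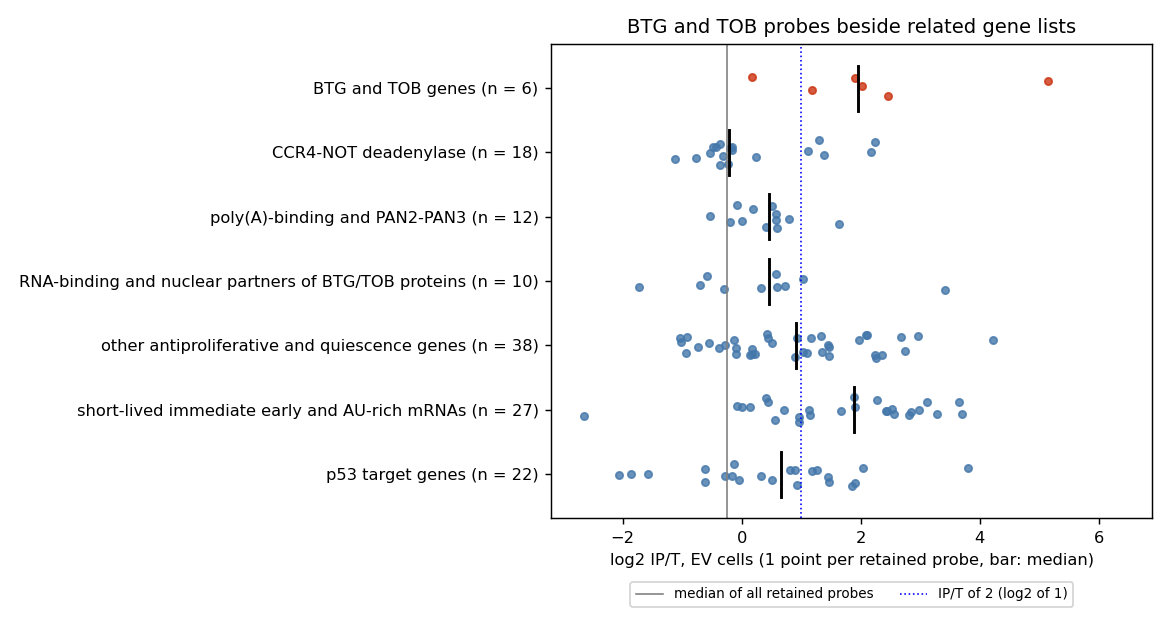
Log2 IP/T in EV cells (x axis), 1 point per retained probe, for the BTG and TOB genes (red) and 6 related gene lists (blue), with black bars at each median. The grey line marks the median of all retained probes, -0.24, and the dotted line an IP/T of 2. BTG2, at 5.15, lies to the right of every point of the lists.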

How the data were processed

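The authors hybridized both RNA fractions (total and Ago2-IP) of EV and sponge KM-H2 cells together on 2-color Agilent whole genome arrays, 1 cell population per array, and repeated each array with the dyes swapped. Per the file headers, the deposited spot intensity values were made with Agilent Feature Extraction 10.7.3.1 (the submitters' processing notes name 10.5.1.1), which subtracts background and normalizes the dyes. The authors also deposited log2 values, made by quantile normalization and filtering. They differed from the values computed here by a median of 0.0006 over 16060 probes and served as an alternative.

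Outlier spots were dropped and spots of a probe averaged on the log2 scale. As in the study's methods, processed intensities were then quantile-normalized over 8 channels, and probes were retained if well above background in at least 4 channels and within 2-fold between labellings of all 4 samples. Log2 IP/T is the mean of the IP labellings minus that of the total labellings. Such a ratio depends on the other probes of the array and is no measure of how many molecules Ago2 held. With 1 sample per group no test was run, and the number of arrays limits the precision. Replicates 1 and 2 of the labels are the Cy3 and Cy5 labellings.

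Probes were named through their RefSeq accessions (GRCh38.p14 table), which matched 23958 of 41000 probes. Unmatched probes stay unnamed. Members and gene lists were chosen with earlier results of these data known. The genes named are all members, BTG4, the 3 nearest genes of each member, and from each list the 2 highest and 2 lowest probes by EV ratio, taken from probes detected in all 8 channels. The second CNOT6L probe, CNOT7, CNOT8, CPEB3 and KLF6 were added after their values were seen. Normexp (offset 50) ran in limma 3.58.1 under R 4.3.3, all else in Python 3.11.15 (pandas 2.3.3, numpy 2.4.6). Some items of these lists are not reported here. The code was tested on simulated data.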

Additional observations from a re-analysis of the deposited data

How the results depend on the processing

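The ratios per dye orientation pair the IP and total RNA that shared an array. No paired test was run, because each group is 1 sample and the replicate numbers mark only the dye. In EV and sponge cells alike, the count of member probes with an IP/T of at least 2 was 3 under both normexp settings, where all 6 were retained, and 3 of 4 with labellings within 1.5-fold, which dropped BTG2 and TOB2 A_23_P335813. The median log2 IP/T was 0.97 (EV) and 0.98 (sponge) with normexp and loess, 0.99 and 1.11 with normexp and quantile normalization, and 1.59 and 1.57 with labellings within 1.5-fold. In sponge cells alone it moved to 1.81 when channels were scaled to a common median instead, where BTG2 was not retained, to 2.21 with probes averaged per gene, and to 2.19 with no normalization between channels, an alternative chosen after seeing the data. Leaving out the labellings of 1 dye gave 1.99 to 2.20 there. The other counts stayed within 1.5-fold of those given above, and the other medians moved less than the SD between dye orientations. No called value changed sign. No member probe changed 2-fold with the sponge, in IP/T or in total RNA, under any setting. The IP/T of BTG1 in sponge cells lay below 1 with the Cy5 labellings alone (log2 -0.054) and with normexp and quantile normalization (-0.011). The change of IP/T with the sponge took the other sign for BTG1 in 1 of 14 alternatives, for BTG2 in 1 of 12, for BTG3 in 3 of 14 and for TOB1 in 1 of 14. The change of total RNA kept its sign for BTG1 in 14 of 14, BTG2 in 8 of 12, BTG3 in 9 of 14, TOB1 in 12 of 14, and TOB2 in 11 of 13 (A_23_P335813) and 13 of 14 (A_32_P179676). Alternatives that change only a filter are among those counted, and they cannot alter the value or sign of a retained probe. Normexp moved the median log2 IP/T of all probes in EV cells from -0.24 to -0.015 (loess) or -0.084 (quantile), and the share of all probes at an IP/T of 2 from 14.8% to 5.99% or 6.64%. The counts at an IP/T of 2 in EV cells then became 2 and 1 of 18 for CCR4-NOT, 0 of 10 and 0 of 11 for poly(A)-binding genes, 1 of 15 and 3 of 17 for partners, 9 of 43 and 9 of 44 for antiproliferative genes, 4 of 25 in both for p53 targets, and 15 of 26 and 15 of 27 for immediate early genes. With no normalization between channels the median change of total RNA over all probes was -0.28. The cause of the shifts was not tested.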
